A study of Mus musculus with 10 samples.

Results

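The genes described here are 10 contractile genes of smooth muscle and of the myoepithelial cells that surround the mammary ducts: Acta2, Tagln, Cnn1, Myh11, Actg2, Myl9, Myh9, Tpm1, Tpm2 and Oxtr. They were found by name among the probes of the Agilent mouse array, whose deposited table names 19270 genes in all. They had 20 probes, and all 20 were among the 40196 probes of the deposited normalized table. RNA from 10 mouse tumors was measured, 1 array per tumor, with 5 tumors labelled sarcomatoid (a carcinoma whose cells take a spindle shape) and 5 labelled adenocarcinoma (a carcinoma that keeps a glandular form). The sarcomatoid group held the mammary tumors 323, 307 and 594 and the lung tumors 323 and 307, and the adenocarcinomas were the mammary tumors 105, 131, 470, 17 and 85. Tumor 594 is labelled sarcomatoid carcinoma and the other 4 sarcomatoid adenocarcinoma.

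The lung tumors are labelled as transplanted, and according to the methods they grew after tail vein injection of cell lines made from mammary tumors of the same group, so the 5 sarcomatoid arrays come from 3 tumor origins. The methods describe the sarcomatoid group as follows. One mammary tumor and its lung tumor carried both Pik3ca H1047R and Trp53 R270H, another and its lung tumor carried Pik3ca H1047R and had gained Trp53 R245H, and the last mammary tumor carried Trp53 R270H alone. The 5 adenocarcinomas are all described as carrying Pik3ca H1047R together with Trp53 R270H. All groups share the Cre recombinase driven by the MMTV promoter, which is active in mammary epithelium. The labels do not tie a genotype to a tumor number, so no comparison by genotype was made, and the age of the mice is not given in the sources used here. Whole tumors were measured, and in such samples fewer cells of a type and less RNA per cell cannot be told apart.

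The 10 genes make and regulate the contractile machinery. Acta2 and Actg2 encode smooth muscle actins, Myh11 the smooth muscle myosin heavy chain, Myh9 a nonmuscle myosin heavy chain and Myl9 a regulatory myosin light chain. Tagln (transgelin, SM22), Cnn1 (calponin), Tpm1 and Tpm2 (tropomyosins) bind actin filaments, and Oxtr is the oxytocin receptor through which myoepithelial cells are made to contract at milk let-down. Smooth muscle, pericytes, myofibroblasts and myoepithelial cells share many of these genes, and much of their transcription runs through serum response factor, which binds a DNA element called the CArG box.

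The promoters of Myl9 and Acta2 are shown because their levels moved together across the tumors and both hold elements of this kind. The sequences are the 250 bases before the RefSeq start site in build GRCm38.p6, Myl9 at chr2:156775214-156775463 on the plus strand and Acta2 at chr19:34255374-34255623 on the minus strand. Capitals mark the CArG box (CC, then 6 bases that are A or T, then GG) and boxes with 1 C or G among those 6 bases. The element reads as the same pattern on both strands and no 2 boxes overlapped.
Myl9: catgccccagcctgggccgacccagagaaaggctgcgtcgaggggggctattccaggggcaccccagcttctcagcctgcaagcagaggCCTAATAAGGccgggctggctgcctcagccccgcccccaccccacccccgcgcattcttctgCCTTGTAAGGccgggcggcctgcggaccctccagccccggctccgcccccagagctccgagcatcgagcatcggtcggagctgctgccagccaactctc
Acta2: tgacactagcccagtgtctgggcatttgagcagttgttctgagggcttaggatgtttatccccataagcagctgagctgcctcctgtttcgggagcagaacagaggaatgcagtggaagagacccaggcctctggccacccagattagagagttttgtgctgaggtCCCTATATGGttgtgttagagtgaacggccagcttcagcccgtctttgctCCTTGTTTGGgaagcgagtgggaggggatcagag
Myl9 held 1 exact box, CCTAATAAGG, whose first base lies 161 bases before the start, and 1 box with a single C or G, CCTTGTAAGG, at 99 bases. Acta2 held no exact box and 2 with a single C or G, CCCTATATGG at 84 bases and CCTTGTTTGG at 34 bases. Of 7 member promoters that could be matched, the exact box was found in Myl9 alone and the looser box in Myl9 and Acta2, whereas 1.467% of 32851 promoter windows of the same length held the exact box and 7.245% the looser one. Tagln, Myh11 and Actg2 were not matched. The looser pattern was added after the sequences were seen, and a match describes the letters of the window only.

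Values are log2 ratios of a tumor over a common reference RNA. The labels name Cy3 (green) as the dye of the tumor RNA, but green varied less between arrays than red (mean SD 0.737 against 0.975 on the log2 scale), so red was read as the tumor and green as the reference. The direction is therefore likely rather than settled, on the basis of this spread and of the direction the study gives for its epithelial genes. If the dye label were right, every sign given here would turn. The arrays were read in 3 scan batches, batch 1 with mammary tumor 323 alone, batch 2 with tumors 307, 594, 105 and 470, and batch 3 with both lung tumors and tumors 131, 17 and 85. Between 52.2% (tumor 85) and 83.0% (tumor 105) of all probes on the array were well above background in red. Tumor 470 stood apart among the adenocarcinomas, since leaving it out took the number of probes that differed between the 2 tumor types from 0 to 618.

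The contractile genes varied widely among the 10 tumors and the variation did not follow the tumor type. Cnn1 spanned 6.60 log2 units between the lowest and the highest tumor, more variable (SD 2.48) than 99.7% of all probes, and Tpm2 (SD 1.98), Tagln (1.65), Myl9 (1.47) and Acta2 (1.16) were each more variable than at least 90.5% of all probes. Actg2 was the opposite, with an SD of 0.39 that exceeded 19.5% of all probes.

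**Figure D1:**
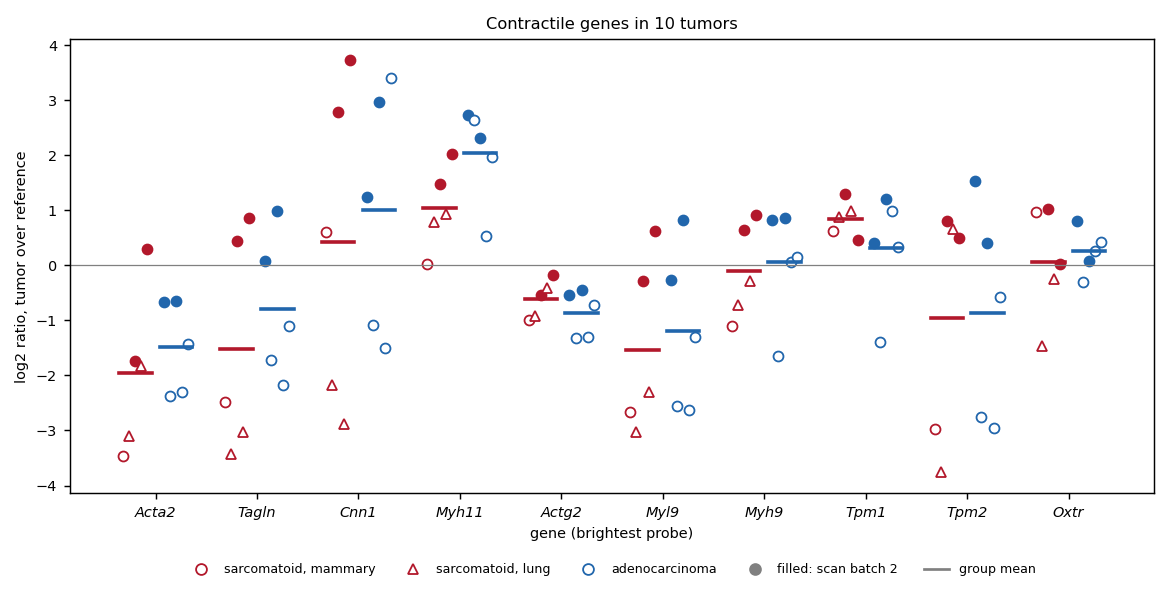
Log2 ratio of tumor over reference (vertical axis) for the brightest probe of each of the 10 genes (horizontal axis) in 5 sarcomatoid tumors (red, with lung tumors as triangles) and 5 adenocarcinomas (blue), filled where the array was read in scan batch 2, with a line at each group mean. The 2 tumor types overlap for every gene, and the filled points lie above all open points for Tagln, Myl9 and Myh9.

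Acta2, the smooth muscle actin by which myoepithelial cells and myofibroblasts are usually stained, was below the reference in 9 of 10 tumors. Its brightest probe, printed at 10 spots whose SD within an array was 0.02 to 0.17, read -3.46 (tumor 323), -3.10 (323 lung), -1.73 (307), -1.84 (307 lung) and 0.30 (594) in the sarcomatoid tumors. In the adenocarcinomas it read -0.67 (105), -2.38 (131), -0.66 (470), -2.29 (17) and -1.43 (85). By this probe tumor 594 was the highest and both tumors of origin 323 were the lowest, so that the adenocarcinomas lay wholly inside the sarcomatoid range. Probes A_52_P210078 and A_52_P239556 also had tumor 594 highest and the adenocarcinomas inside. By A_51_P450957 tumor 105 was the highest, at 0.83, above all sarcomatoid values (-1.28 to -0.22). The means of the brightest probe were -1.97 ± 1.48 (SD, n = 5) and -1.49 ± 0.84 (SD, n = 5), a difference of -0.48 (SE 0.65, limma, adjusted p = 0.874).

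Tagln and Cnn1 bind actin filaments in smooth muscle and are used as markers of its differentiation. Tagln read -2.48 (323), -3.43 (323 lung), 0.44 (307), -3.02 (307 lung) and 0.87 (594) in the sarcomatoid tumors and 0.07 (105), -1.73 (131), 0.98 (470), -2.18 (17) and -1.11 (85) in the adenocarcinomas. Cnn1 read 0.61, -2.17, 2.79, -2.87 and 3.73 in the sarcomatoid tumors, and 1.23, -1.08, 2.97, -1.50 and 3.40 in the adenocarcinomas, in the same order. Each gene had high and low tumors of both types, and Cnn1 was lowest in the 2 lung tumors. The tumor types differed by -0.73 for Tagln (SE 0.91, limma, adjusted p = 0.856) and by -0.59 for Cnn1 (SE 1.37, limma, adjusted p = 0.932).

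Myh11, the myosin heavy chain that is particular to smooth muscle, was above the reference in all 10 tumors, with the limit that the reference itself was well above background on 5 arrays. It read 0.02 (323), 0.78 (323 lung), 1.48 (307), 0.94 (307 lung) and 2.02 (594) in the sarcomatoid tumors and 2.74 (105), 2.64 (131), 2.31 (470), 0.54 (17) and 1.96 (85) in the adenocarcinomas. Of the brightest probes it had the lowest unadjusted p of the 10 genes, with 1.05 ± 0.75 against 2.04 ± 0.89 (SD, n = 5 each). The difference was -0.99 (SE 0.47, 95% interval -2.01 to 0.04, limma, adjusted p = 0.554). Adenocarcinomas 17 (0.54) and 85 (1.96) lay among the sarcomatoid values. The green signal of Myh11 varied nearly as much as the red (SD 0.99 and 1.12, log2, array median subtracted). The order of the tumors therefore rests partly on the reference. Tumor 131 had a red signal of -0.91 and a green signal of -3.53, and tumor 307 had -0.20 and -1.39. Actg2, the gamma actin of smooth muscle, was below the reference in all 10 tumors, from -0.99 to -0.18 in the sarcomatoid tumors and from -1.33 to -0.45 in the adenocarcinomas.

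Myl9, whose protein switches on smooth muscle and nonmuscle myosin when phosphorylated, read -2.66 (323), -3.03 (323 lung), -0.29 (307), -2.31 (307 lung) and 0.62 (594) in the sarcomatoid tumors. In the adenocarcinomas it read -0.27 (105), -2.56 (131), 0.82 (470), -2.63 (17) and -1.29 (85). Myh9, the heavy chain of a nonmuscle myosin found in most cells, read -1.11, -0.72, 0.64, -0.28 and 0.92 in the sarcomatoid tumors and 0.83, -1.64, 0.86, 0.07 and 0.15 in the adenocarcinomas, in the same order. By these brightest probes tumors 307, 594, 105 and 470 were above the other 6 for both genes, whereas the second Myh9 probe (A_52_P130899) read -0.44 in tumor 594, below tumors 17 (0.54) and 85 (-0.19). The differences between tumor types were -0.35 for Myl9 (SE 0.83, limma, adjusted p = 0.933) and -0.16 for Myh9 (SE 0.53, limma, adjusted p = 0.953).

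Tropomyosins lie along the actin filament and set which myosins reach it. Tpm2 read -2.98 (323), -3.76 (323 lung), 0.81 (307), 0.66 (307 lung) and 0.49 (594) in the sarcomatoid tumors and 1.52 (105), -2.76 (131), 0.41 (470), -2.96 (17) and -0.57 (85) in the adenocarcinomas. The values fell into a high set of 307, 307 lung, 594, 105 and 470 and a low set of 323, 323 lung, 131 and 17, each with tumors of both types, and tumor 85 lay between. Unlike Tagln and Myl9, Tpm2 was as high in the lung tumor 307 as in its mammary tumor of origin. The group difference was -0.08 (95% interval -2.50 to 2.33, limma, adjusted p = 0.990).

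The Tpm1 probes did not read alike. Its brightest probe (A_52_P44949) and a second probe of the same transcript (A_52_P532910) differed by at most 0.19 in 9 of 10 tumors, the exception being tumor 105, where they read 0.40 and 2.57. The other Tpm1 probe (A_51_P325173), designed on the cDNA AK077713, read 4.25 in tumor 105 and from -0.98 to 1.64 in the others. Tpm1 is spliced into many isoforms, and which isoform each probe detects was not tested. The 3 probes gave differences between tumor types of 0.54, 0.06 and -1.36, none past the threshold (limma, adjusted p from 0.649 to 0.986).

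Oxtr was not well above background in most tumors. Its brighter probe passed that limit in tumors 307, 105 and 17, its other probe in tumor 105, and the reference in none, so its ratios, from -1.47 to 1.02, set 2 dim signals against each other. The Acta2 probe A_52_P644232 was likewise well above background in tumor 105 only.

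Where a gene had more than 1 bright probe, how alike the probes ordered the tumors varied. Over the 10 tumors, which the probes share, the 2 Tpm2 probes correlated at r = 0.999, the brightest Acta2 probe and A_52_P210078 at 0.968, the 2 Tagln probes at 0.957 and the 2 Myh9 probes at 0.744. The brightest Acta2 probe correlated at 0.714 with A_52_P239556 and at 0.674 with A_51_P450957, and the brightest Tpm1 probe at 0.683 with A_52_P532910 and at 0.161 with A_51_P325173. The second Tagln probe (A_52_P517683) placed mammary tumor 323 lowest, at -4.30, where the first gave -2.48. The Acta2 probes A_51_P450957 and A_52_P239556 spanned 2.11 and 1.28 log2 units against 3.76 for the brightest probe, so the range of Acta2 depended on the probe. The brightest probes map, per the file headers in build mm7, to chr19:33942803-33942862 (Acta2), chr9:45888137-45888196 (Tagln), chr9:21988172-21988231 (Cnn1), chr16:13741638-13744562 (Myh11), chr6:83548244-83548570 (Actg2), chr2:156522455-156522514 (Myl9), chr15:77843555-77843614 (Myh9), chr9:67054531-67054590 (Tpm1), chr4:43533092-43533242 (Tpm2) and chr6:112637108-112637169 (Oxtr). No annotation of that build was used here, so the exon or UTR of a probe is not given.

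The first comparison asked whether the contractile genes differ between sarcomatoid carcinoma and adenocarcinoma. No member probe passed the threshold (limma, adjusted p below 0.05), with 0 of 20 against 0% of all 40196 probes, and 0 of 20 against 9.23% of all probes had an unadjusted p below 0.05. Of the brightest probes 8 of 10 were lower and 2 of 10 (Actg2 and Tpm1) higher in the sarcomatoid tumors, with a median difference of -0.27 where all probes had -0.00. No member had groups that did not overlap, against 1.33% of all probes. Without adenocarcinoma 470, 1.54% of all probes passed the threshold and still 0 of 20 member probes. The 95% intervals were wide for the most variable genes, from -3.58 to 2.40 for Cnn1 and from -2.71 to 1.24 for Tagln.

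The directions were not stable. With the mammary tumors alone (3 sarcomatoid, 5 adenocarcinomas) the median over the 10 genes turned from -0.27 to 0.36, and Cnn1, Tagln, Myl9, Tpm2, Oxtr and Myh9 turned from lower to higher in the sarcomatoid tumors (1.37, 0.40, 0.41, 0.31, 0.42 and 0.10, none past the threshold, limma). Within scan batch 2, which held 2 tumors of each type, Tagln differed by 0.12, Myl9 by -0.11, Acta2 by -0.05 and Cnn1 by 1.16 (sarcomatoid minus adenocarcinoma). Within scan batch 3, where both sarcomatoid tumors were the lung tumors, Cnn1 differed by -2.80 and Tagln by -1.55. For both genes the 2 lung tumors lay below the 3 adenocarcinomas. The share of all probes that separate these arrays in the same way was not counted, so no weight is put on this. Scan batch 1 held 1 tumor and gave no value. Myh11 differed by -0.77 within batch 2 and by -0.85 within batch 3, with the limit of its green signal given above.

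**Figure D2:**
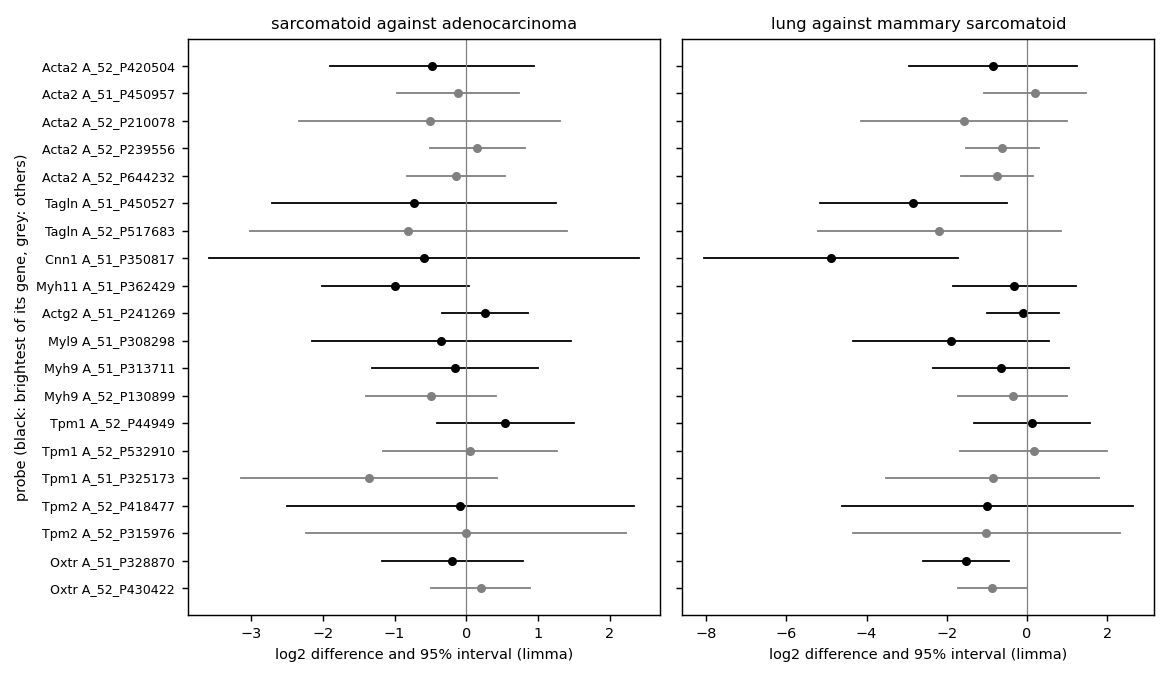
Log2 difference with its 95% interval (horizontal axis, limma) for all 20 member probes (vertical axis), for sarcomatoid against adenocarcinoma (left, n = 5 and 5) and for lung against mammary sarcomatoid tumors (right, n = 2 and 3), with the brightest probe of each gene in black. On the left the interval of every probe spans 0, and on the right those of Cnn1, 1 Tagln probe and both Oxtr probes lie below 0 before adjustment over all probes.

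Lung and mammary tumors of the sarcomatoid group, 2 and 3 in number, were compared next. Cnn1 showed the largest difference of the 10 genes, with -2.52 ± 0.50 (SD, n = 2) in lung and 2.37 ± 1.60 (SD, n = 3) in mammary tumors. That is 29.8-fold lower in the lung tumors (log2 difference -4.90, SE 1.43, 95% interval -8.06 to -1.73), with an unadjusted p that did not hold after adjustment over all probes (limma, adjusted p = 0.308). Tagln was 7.13-fold lower (log2 difference -2.83, SE 1.06, limma, adjusted p = 0.397) and Myl9 3.70-fold lower (log2 difference -1.89, SE 1.11, limma, adjusted p = 0.574), neither past the threshold. Single tumors moved these values. Without mammary tumor 323 the log2 differences were -5.78 for Cnn1, -3.88 for Tagln and -2.83 for Myl9, and without tumor 594 they were -4.22, -2.21 and -1.19.

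In all, 0 of 20 member probes passed the adjusted threshold, against 0.0249% of all probes. Cnn1, both Oxtr probes and the brightest Tagln probe, 4 of 20, had an unadjusted p below 0.05 and were lower in lung, against 5.1% of all probes. The lung values lay below all mammary values for 6 of 20 member probes (Cnn1, 1 of 2 Tagln probes, both Oxtr probes and 2 of 5 Acta2 probes) against 16.9% of all probes. Of these 6, both Oxtr probes and 1 Acta2 probe were not well above background in either lung tumor. The brighter Oxtr probe was well above background in 1 of 3 mammary tumors, so no fold is given for it.

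The lung and mammary tumors were also set side by side within each origin. In origin 307 the lung tumor read lower than its mammary tumor for 9 of 10 genes, with log2 differences of -5.66 for Cnn1, -3.46 for Tagln and -2.02 for Myl9, while those of Tpm2 (-0.15) and Acta2 (-0.11) were small. In origin 323 the lung tumor read lower for 5 of 10 genes, with -2.78 for Cnn1, -0.95 for Tagln and -0.36 for Myl9, and Acta2 was 0.36 higher. Tpm2 differed by -0.78 in origin 323. By their brightest probes Cnn1, Tagln, Myl9 and Tpm2 were therefore lower in the lung tumor of both origins, and Oxtr too at signals near background. For Tagln this depended on the probe, since the second probe read 1.03 higher in the lung tumor of origin 323 (-3.27 against -4.30). Over all probes 51.0% were lower in the lung tumor of origin 307 and 49.1% in that of origin 323. Whether the 2 origins differ in this change was not tested, since each gives 1 pair.

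**Figure D3:**
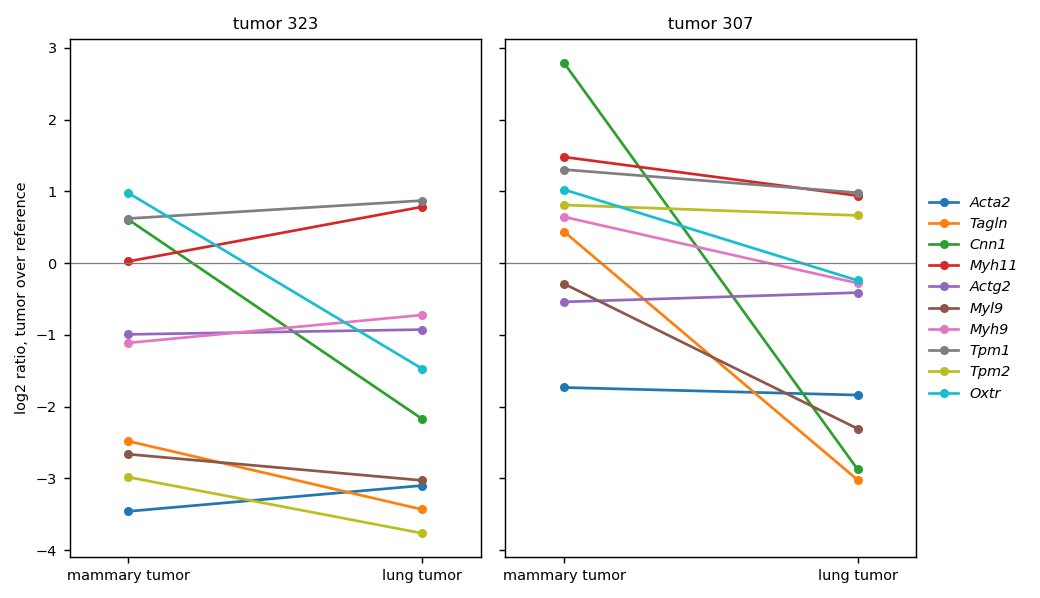
Log2 ratio of tumor over reference (vertical axis) for the brightest probe of the 10 genes, 1 array per point. Lines join the mammary tumor and the lung tumor grown from its cell line, for origins 323 (left) and 307 (right). The line of Cnn1 slopes down in both origins, with differences of -2.78 and -5.66, and those of Tagln and Myl9 slope down most in origin 307, with -3.46 and -2.02.

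Site and scan batch overlapped, since both lung tumors were read in batch 3 and the mammary sarcomatoid tumors in batches 1 and 2. Site also overlapped with growth as a cell line, through which by the methods both lung tumors passed and the primary mammary tumors did not. These cannot be told apart here. With scan batch as a term, the step between batches 2 and 3 could be informed by the adenocarcinomas only. Mammary tumor 323, alone in batch 1, then no longer counted, which left mammary tumors 307 and 594 against both lung tumors. In that fit the lung difference was -3.95 for Cnn1, -1.68 for Tagln and -0.40 for Myl9 (limma, adjusted p = 0.814, 0.727 and 0.970). Markers of the luminal epithelium were also lower in the lung tumors for 11 of 12 genes (median -3.15), and the mean over the list was -1.84 and -0.92 in lung against 1.37 to 1.42 in mammary tumors. Myoepithelial and basal markers were lower for 10 of 13 genes (median -0.85), none past the threshold (limma), and the mean over that list was -0.16 and -0.02 in lung against 0.75 to 1.41 in mammary tumors. The mean over the lung epithelium list was -0.16 (323) and 1.098 (307) in the lung tumors and ran from -0.07 to 0.64 in the mammary sarcomatoid tumors. Of the 8 genes of that list, 1 was well above background in red on all 10 arrays and 1 on none, which limits this mean. The part of these cell types in the Cnn1 and Tagln difference was not tested.

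Tagln and Myl9 split the tumors by scan batch. Tagln was above the reference in the 4 tumors of scan batch 2 (0.07 to 0.98) and below it in the 6 others (-3.43 to -1.11), and Myl9 ran from -0.29 to 0.82 against -3.03 to -1.29. In a fit with tumor type and scan batch 2 as terms, added after the values were seen, Tagln was 7.54-fold higher in batch 2 (log2 difference 2.92, SE 0.38, limma, adjusted p = 0.0192) and Myl9 6.20-fold (log2 difference 2.63, SE 0.36, limma, adjusted p = 0.0309). The second Tagln probe was 9.14-fold higher (log2 difference 3.19, SE 0.47, limma, adjusted p = 0.0340).

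These 3 of 20 member probes compared with 0.0896% of all probes called higher in batch 2. Batch 2 values lay above all others for 4 of 20 member probes, these 3 and the brighter Myh9 probe (1.40, limma, adjusted p = 0.183), against 2.04% of all probes. All 10 brightest probes were higher in batch 2 with a median of 1.57 where all probes had -0.05. For Oxtr, dim in most tumors, the red signal differed by -0.12 and the green by -1.61 (log2, array median subtracted). Its higher ratio thus came from the green signal. The green signal also differed for Myh11 (1.05) and Actg2 (0.51), beside red differences of 1.74 and 1.16. The calls were fragile. Neither Tagln nor Myl9 kept an adjusted p below 0.05 (limma, brightest probes) without lung tumor 307 or without tumor 594, 131, 470 or 17, and Tagln alone kept it without lung tumor 323 or without tumor 105. Without each tumor in turn the adjusted p ran from 0.0207 to 0.122 for Tagln and from 0.0266 to 0.144 for Myl9, and the differences from 2.67 to 3.26 and from 2.41 to 2.89 on the log2 scale.

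The split of Tagln and Myl9 lay in the red channel. For Tagln the red signal, taken on a log2 scale after subtracting the median of its array, differed by 3.002 between batch 2 and the others and the green signal by -0.13, and for Myl9 the values were 2.61 and -0.15. Over all 10 arrays the red signal had an SD of 1.72 for Tagln and 1.45 for Myl9, and the green signal 0.27 and 0.15. Each gene's green signal was therefore nearly constant while its red signal moved. Green was read as the reference because it varied less over all probes, so these values cannot test that reading.

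**Figure D4:**
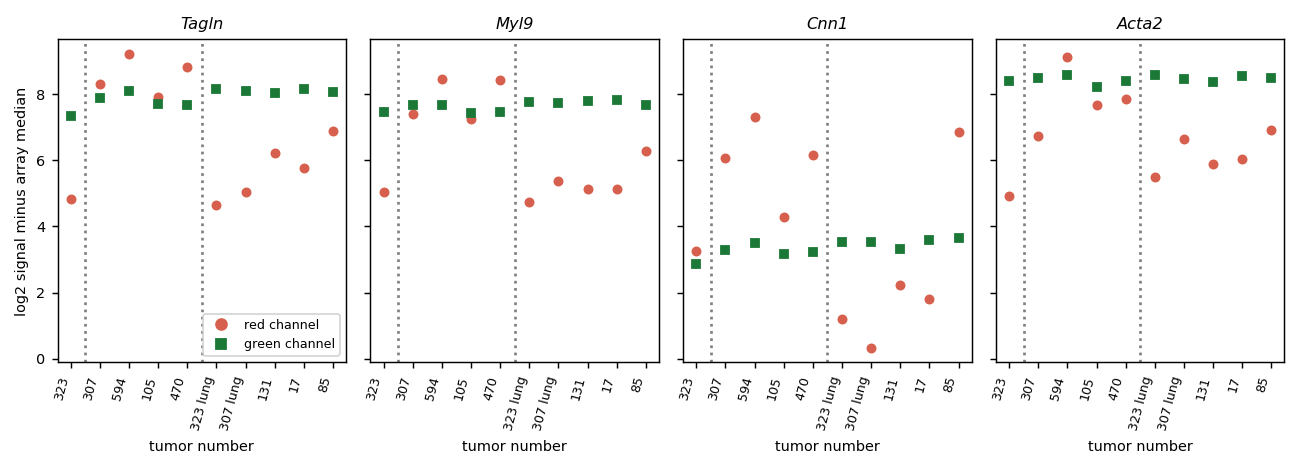
Red (circles) and green (squares) processed signal of Tagln, Myl9, Cnn1 and Acta2 on a log2 scale after subtraction of the array median (vertical axis), by tumor in order of scan batch (horizontal axis, batches 1, 2 and 3 parted by dotted lines). The green signal stays level, with an SD of 0.27 for Tagln and 0.15 for Myl9, and the red signal is higher in the 4 tumors of batch 2 for both genes.

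Markers of several other tissues moved with the same split. Of the skeletal muscle markers 15 of 15 were higher in batch 2 with a median of 3.11, of the adipocyte markers 6 of 7 with a median of 2.46, of the fibroblast markers 12 of 12 with a median of 1.90, and of the endothelial markers 8 of 8 with a median of 0.82, none of them past the adjusted threshold (limma). Mural cell markers were higher for 8 of 9 genes (0.76) and luminal markers for 8 of 12 (0.10). The smooth muscle partners described next were higher for 17 of 20 (0.93) and the myoepithelial and basal markers for 10 of 13 (0.55), likewise with 0 past the threshold (limma). At an unadjusted p below 0.05, 8 of the partners and 4 of the basal markers were higher, and 0 and 1 were lower (limma). Of all 40196 probes 2410 were higher and 2777 lower. At the same level 14 skeletal muscle, 5 adipocyte, 6 fibroblast, 4 endothelial, 2 mural cell and 0 luminal markers were higher. In these lists no marker was lower at that level. The mean over the skeletal muscle list ran from -0.89 to 4.88 in batch 2 and from -1.43 to 0.83 in the other arrays. In batch 2 tumors 594, 105 and 470 that mean was 2.70, 4.88 and 3.38, and Tagln read 0.87, 0.07 and 0.98. In batch 2 tumor 307 the mean was -0.89 and Tagln read 0.44. In the lung tumors the mean was 0.83 (323) and 0.52 (307), and Tagln read -3.43 and -3.02. The mean of the fibroblast list was 1.73 in lung tumor 307 and 2.19 in tumor 470, the highest of the 10. The mean of the adipocyte list ran from 2.44 to 4.37 in batch 2 and from 0.56 to 2.26 in the other arrays. The nearest values were 2.44 in tumor 307 and 2.26 in lung tumor 323. The part of these tissues, and of the scan, in the split was not tested.

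**Figure D5:**
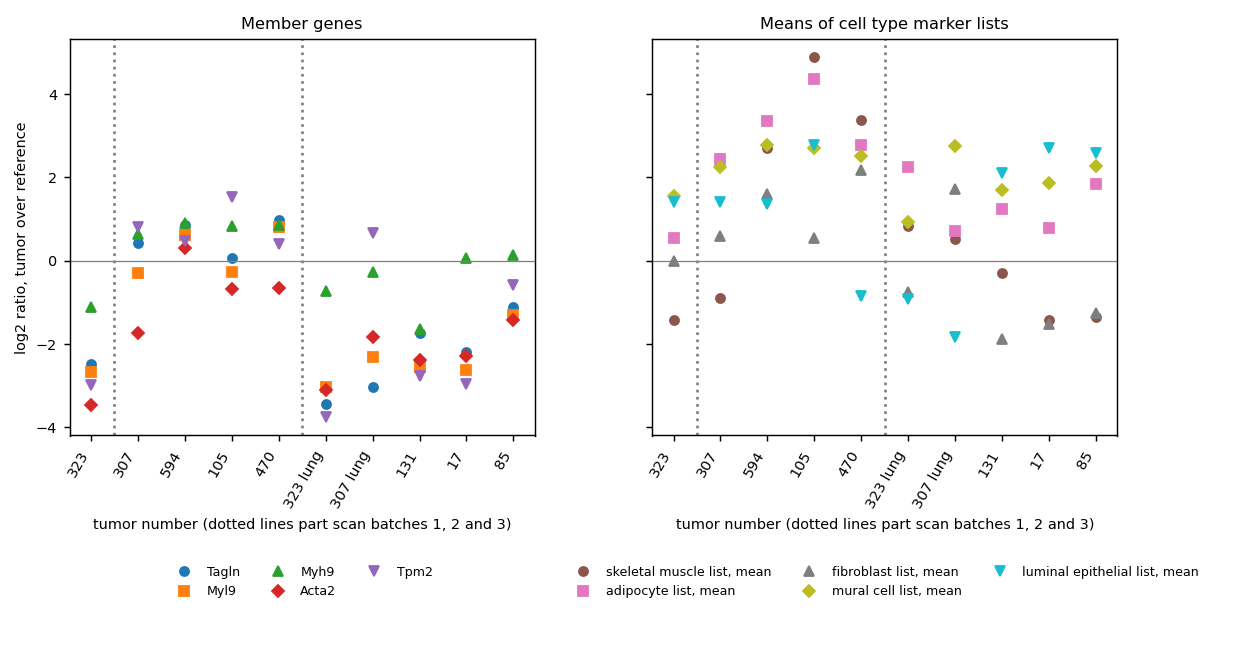
Log2 ratio of tumor over reference (vertical axis) by tumor in order of scan batch (horizontal axis), for the brightest probes of Tagln, Myl9, Myh9, Acta2 and Tpm2 (left) and for the mean over the genes of 5 cell type marker lists (right). Tagln, Myl9 and Myh9 are higher in the 4 tumors of batch 2 than in all others, and the skeletal muscle mean is low, at -0.89, in batch 2 tumor 307.

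Partners of the contractile genes were read from lists. Of 20 further smooth muscle genes 13 were lower and 7 higher in the sarcomatoid tumors (median -0.23), with 0 past the threshold and 3 at an unadjusted p below 0.05 (limma), where 9.23% of all probes had such a p. Pdlim3, which binds alpha-actinin, differed by -1.80 (SE 0.74, limma, adjusted p = 0.489). Between lung and mammary tumors 9 of the 20 were higher and 11 lower (median -0.12), with 0 past the threshold (limma). At an unadjusted p below 0.05, 0 were higher and 2 lower (limma), where 5.1% of all probes were lower. These 2 were Pdlim3 and Lmod1, a nucleator of actin filaments in smooth muscle. Their differences were -2.78 and -2.03 (SE 0.73 and 0.54, limma, adjusted p = 0.272 and 0.273). Lmod1 read -2.48 and -2.07 in the lung tumors and from -0.50 to -0.10 in the mammary sarcomatoid tumors. It thus had no overlap, as had 16.9% of all probes in that direction.

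Of the 9 measured genes for serum response factor, its myocardin family of cofactors and regulators of the TGF-beta pathway, 5 were higher and 4 lower in the sarcomatoid tumors (median 0.11), with none called and 2 at an unadjusted p below 0.05 (limma), beside the same 9.23% of all probes. These were the TGF-beta receptor genes Tgfbr2 (1.16, SE 0.38, limma, adjusted p = 0.405) and Tgfbr1 (0.96, SE 0.39, limma, adjusted p = 0.480). In the lung tumors Mrtfb, a myocardin-related cofactor, differed by -1.03 (SE 0.46, limma, adjusted p = 0.465) and Tgfb1, the ligand, by 0.91 (SE 0.70, limma, adjusted p = 0.681) from the mammary tumors. Srf itself ran from -0.97 to 0.20 in the sarcomatoid tumors and from -1.03 to 0.89 in the adenocarcinomas, with the groups overlapping.

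The paralogs that build actomyosin in all cells were higher in the sarcomatoid tumors for 10 of 12 genes (median 0.36), none past the threshold (limma). Myl12a, a nonmuscle myosin light chain, differed by 0.75 (SE 0.45, limma, adjusted p = 0.653) and Actn4, a nonmuscle alpha-actinin, by -1.05 (SE 0.44, limma, adjusted p = 0.496). In lung against mammary tumors 5 of these 12 were higher and 7 lower (median -0.12), with 0 called (limma). Cnn3, a calponin of nonmuscle cells, differed by 1.16 (SE 0.36, limma, adjusted p = 0.324), opposite in sign to Cnn1, and Actn1 by 0.75 (SE 0.45, limma, adjusted p = 0.585). Of the kinases, phosphatase subunits and receptors that signal contraction, 5 of 12 were higher and 7 lower in the sarcomatoid tumors (median -0.24), with 0 called (limma). Itpr3, a calcium channel of intracellular stores, differed by -1.15 (SE 0.32, limma, adjusted p = 0.346) and Plcb1, a phospholipase C, by -1.02 (SE 0.64, limma, adjusted p = 0.668). Between lung and mammary tumors Plcb1 differed by 2.43 (SE 0.62, limma, adjusted p = 0.263) and Rock1, a kinase that raises myosin light chain phosphorylation, by -0.92 (SE 0.35, limma, adjusted p = 0.400).

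Cell type markers give the setting of these values. Myoepithelial and basal markers were lower in the sarcomatoid tumors for 10 of 13 genes (median -1.09), led by Itgb4 (-1.98, SE 0.85, limma, adjusted p = 0.510) and Lamb3 (-1.92, SE 0.92, limma, adjusted p = 0.556), which anchor basal cells to the basement membrane. Luminal markers were lower for 11 of 12 (median -1.51), led by Krt18 (-3.32, SE 1.26, limma, adjusted p = 0.463) and Epcam (-2.86, SE 1.47, limma, adjusted p = 0.583). The sign of the luminal values is not an independent result. The study's direction for its epithelial genes, Krt18 and Epcam among them, was part of the ground for reading red as the tumor. Fibroblast markers were higher for 12 of 12 (median 1.102), led by Pdpn (1.64, SE 0.95, limma, adjusted p = 0.629) and Fn1 (1.63, SE 0.62, limma, adjusted p = 0.462). None of the markers passed the threshold (limma). At an unadjusted p below 0.05, 1 luminal gene was higher and 3 lower, 2 fibroblast genes were higher and 0 lower, and 1 myoepithelial gene was higher and 2 lower, where of all 40196 probes 2001 were higher and 1708 lower. Mural cell (2 of 9 higher, median -0.19), endothelial (6 of 8, 0.11), skeletal muscle (2 of 15, -0.83), lung epithelium (6 of 8, 0.04) and adipocyte markers (3 of 7, -0.52) likewise held no called gene. The contractile genes, with a median of -0.27, thus lay between lists that were lower and lists that were higher.

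Trp63 and Krt14, which define basal and myoepithelial cells, are given singly, and they do not stand for the whole list. Of its 13 genes 3 were higher in the sarcomatoid tumors, among them Snai2 (1.91) and Mme (1.63). In lung against mammary tumors 3 of 13 were higher. Trp63, the transcription factor that defines basal epithelium, read from 0.54 to 3.72 in the mammary sarcomatoid tumors, -2.22 and -0.82 in the lung tumors and from -0.27 to 6.02 in the adenocarcinomas, with tumor 105 the highest. Its difference between lung and mammary tumors was -3.74 (SE 1.48, limma, adjusted p = 0.417). Krt14, a keratin of myoepithelial cells, read from 1.68 to 2.17 in the mammary sarcomatoid tumors, 2.42 (323) and -1.60 (307) in the lung tumors and from 0.63 to 3.55 in the adenocarcinomas. In lung tumor 323 the 2 genes therefore parted, since Trp63 read -2.22 there.

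The genes whose pattern over the 10 tumors was most like that of Acta2 were sought among 11854 genes well above background in all tumors. They were Actc1, the cardiac actin (Pearson r = 0.973), Mfap2, a microfibril protein (0.924), Lrfn3 (0.922), Unc5a (0.920) and Nr1h3 (0.917), and the least alike were Llph (-0.929), Xrcc6 (-0.923) and Rpl37 (-0.906). Muscle actin transcripts are near-identical in their coding part, and whether the Acta2 and Actc1 probes share target RNA was not tested. On the scanner intensities Actc1 remained first (0.980), and 4 of the 5 genes stayed among the 50 most alike, the exception being Unc5a. Of the other members Myl9 followed Acta2 most closely (0.891), ahead of Tagln (0.829), Myh9 (0.821), Tpm2 (0.804), Actg2 (0.749), Myh11 (0.692) and Cnn1 (0.651), and the values for Oxtr (0.193) and Tpm1 (0.089) were low. The other Tpm1 probes gave 0.313 (A_52_P532910) and 0.740 (A_51_P325173), and the second Myh9 probe 0.447. Tagln was most like Myl9 (0.962) and then Cnn1 (0.861). All of these are descriptions over the same 10 arrays, which share their scan batches.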

How the data were processed

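RNA of 10 mouse tumors was measured on Agilent 2-color arrays, 1 per tumor. Per the file headers, spot intensity in both channels, flags for signal above background and a log10 ratio (red to green) were deposited as written by Feature Extraction 10.7.3.1 (scan batch 1), 11.0.1.1 (batch 2) and 11.5.1.1 (batch 3). The authors also deposited a normalized log2 table, made with limma according to the submitters' processing notes, whose steps are not given in the sources used here. Its 10 columns correlated with the red over green ratio of their own arrays (r from 0.868 to 0.926). The table was used because it is the authors' own, and scanner intensities normalized with limma (normexp, offset 50, loess) were an alternative.

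Rows of a probe were averaged (40196 of 41174 probes were in the table). Differences were tested with limma 3.58.1 in R 4.3.3 (linear model, empirical Bayes, two-sided, Benjamini-Hochberg over all probes, threshold 0.05), without a filter on dim probes. Lung against mammary used 3 groups on all 10 arrays, so the adenocarcinomas add to the spread. P-values measure only the spread between these tumors, of which lung tumors 323 and 307 share an origin, named by the tumor number in the labels, with a mammary tumor. The number of arrays limits the precision. The test was checked on simulated data.

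All members were named, from each list at most 2 genes with the largest difference among probes well above background on at least 5 arrays, and the 5 genes most and 3 least like Acta2. Srf, Krt14 and, between tumor types, Trp63, Snai2 and Mme were named outside this rule after their values were seen. A gene that the rule names is not reported here. The probe with the highest mean signal stood for a gene. Of 41174 probes 22951 were named by accession, 6659 by symbol and 3097 by synonym through RefSeq's GRCm38.p6 gene table, and 8467 were unnamed. Members and lists were chosen with earlier results of these data known. Alternatives were the background correction, normalization, centring, a dim-probe filter, scan batch, slide, tumor number, site, trend and leaving out each array.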

Additional observations from a re-analysis of the deposited data

How the results depend on the processing

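No member probe passed the adjusted threshold of limma in sarcomatoid against adenocarcinoma or in lung against mammary tumors, with each of the other normalizations of the scanner intensities, centring of the deposited table, the dim-probe filter (which left 17 of 20 member probes), scan batch as a term, slide as a random block, an intensity trend, or (between tumor types) tumor number as a random block and (between sites) the sarcomatoid arrays alone, or without each tumor in turn. All-probe counts did move. Sarcomatoid against adenocarcinoma had 0 called probes, 2 with 1 value per tumor number, 1 with median centring and from 0 to 618 without each tumor in turn, and lung against mammary had 10, against 0 with scan batch as a term and 84 without tumor 470.

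No paired analysis was possible because no tumor number is shared between sarcomatoid tumors and adenocarcinomas. Between lung and mammary tumors, tumor number as a replicate block over 2 pairs left 0 called probes and 0 of 20 member probes, with differences of -4.22 for Cnn1 and -2.21 for Tagln, and turned those of Acta2 (0.13), Actg2 (0.10), Myh11 (0.11) and Tpm1 (-0.037). Scan batch as a term turned Actg2 (0.32), Myh9 (0.041) and Tpm2 (0.87) in that comparison, and Tpm2 (0.15) between tumor types.

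Between tumor types, the mammary tumors alone gave Cnn1 1.37, Myh9 0.10, Myl9 0.41, Oxtr 0.42, Tagln 0.40 and Tpm2 0.31, all turned in sign, and 1 value per tumor number turned Myh9 (0.0087), Myl9 (0.011) and Tpm2 (0.16). Oxtr turned with normexp and loess (0.0020) and with median centring (0.027). The median of the serum response factor list became -0.25 in mammary tumors only. None of these differences was past the threshold, and the cause was not tested.

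Without each tumor in turn, the sarcomatoid minus adenocarcinoma differences of Cnn1 ran from -1.42 to 0.23, Myh9 from -0.59 to 0.087, Myl9 from -0.89 to 0.15, Oxtr from -0.44 to 0.19 and Tpm2 from -0.61 to 0.62. The lung minus mammary differences of Acta2 ran from -1.75 to 0.13, Actg2 from -0.36 to 0.16, Myh11 from -0.89 to 0.11, Tpm1 from -0.037 to 0.38 and Tpm2 from -3.20 to 1.23. The member probes called higher in scan batch 2 numbered from 0 to 3. List medians in lung against mammary ran from -0.18 to 0.19 (serum response factor), -0.14 to 0.080 (contraction signalling), -1.72 to -0.54 (basal), -1.13 to 0.40 (mural), -2.26 to 1.29 (fibroblast) and -1.31 to 0.062 (endothelial). The other list medians moved by less than the spread between tumors. Oxtr is limited by its signal, which was well above background in 3 of 10 tumors.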
